A study of Mus musculus with 12 samples.

Results

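The MHC class II genes described here are Ciita, Cd74, H2-Aa, H2-Ab1, H2-Eb1, H2-DMa, H2-DMb1 and H2-DMb2. They were taken by gene symbol from 3 tables of the authors' comparisons, and all 8 had 1 row in each table, out of 24351 genes listed in any of them. The data are RNA-seq of mouse bone marrow-derived macrophages, cells grown from marrow for 7 days in 10% serum and 10 ng/mL M-CSF, the growth factor of macrophages. All groups came from wild-type C57BL/6 males of 8 to 16 weeks. The treated groups were cells held for 4 h with monophosphoryl lipid A (MPLA), cells held for 24 h with MPLA, and cells taken 3 d after the end of MPLA priming, and the controls received no MPLA, with 3 libraries in each of the 4 groups. MPLA is a detoxified lipid A that acts on Toll-like receptor 4, which senses the lipopolysaccharide of bacteria. The duration of priming in the 3 d group, the harvest time of its controls and the origin of replicate libraries (separate animals, cultures or neither) are not stated in the labels. The p-values therefore reflect the variation among these libraries only, which may be technical.

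MHC class II molecules are pairs of an alpha and a beta chain that hold peptides of ingested proteins at the cell surface for CD4 T cells. The chains are made together with the invariant chain, the product of Cd74, which fills the groove until it is degraded in endosomes, where the DM proteins (H2-DMa with H2-DMb1 or H2-DMb2) exchange its last fragment for peptides. Transcription of the set depends on CIITA, a coactivator that does not bind DNA itself but docks on the factors bound at the X, X2 and Y boxes of class II promoters. In macrophages interferon gamma induces Ciita, with IRF1 among the activators of its promoter. Mice of the C57BL/6 strain have no working gene for the alpha chain of the second class II molecule, so H2-Eb1 is transcribed without a partner chain, and their class II at the surface is the product of H2-Aa and H2-Ab1.

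The genes H2-DMa, H2-DMb2, H2-DMb1, H2-Ab1, H2-Aa and H2-Eb1 lie in this order in one cluster on chromosome 17 of build GRCm38. H2-DMa starts it at 34119541 and H2-Eb1 ends it at 34316674. Ciita lies on chromosome 16 (10480059 to 10528418). The stretches that follow, each before a RefSeq gene start, are shown because they hold the letters of the boxes described above. They come from RefSeq (GRCm38.p6), run from base -140 to base -21 before that start, and have in capitals the Y box, the X box upstream of it at the spacing given below and, in H2-Aa, the X2 box between them. They lie at chr17:34287844-34287963 on the minus strand (H2-Aa), at chr17:34305727-34305846 on the plus strand (H2-Eb1) and at chr17:34145109-34145228 on the plus strand (H2-DMb2). GENCODE starts H2-DMb2 farther upstream, at 34143307, so that by its annotation the H2-DMb2 stretch is intronic, inside the gene and outside its exons.
H2-Aa: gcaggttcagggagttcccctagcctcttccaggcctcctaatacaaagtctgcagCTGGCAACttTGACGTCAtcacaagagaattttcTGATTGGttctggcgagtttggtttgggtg
H2-Eb1: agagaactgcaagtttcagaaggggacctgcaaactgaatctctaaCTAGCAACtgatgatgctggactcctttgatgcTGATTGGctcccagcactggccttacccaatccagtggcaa
H2-DMb2: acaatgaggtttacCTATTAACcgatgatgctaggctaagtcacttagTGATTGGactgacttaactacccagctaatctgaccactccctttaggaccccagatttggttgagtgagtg

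The letters searched, on both strands, were CTNNNAAC for the core of the X box, TGACGTCA for the X2 box and TGATTGG for the Y box, and the X box letters were chosen after these promoters had been read. The window from 250 bases before to 50 bases after the start was present for H2-Aa, H2-Eb1, H2-DMb1, H2-DMb2 and, with 2 starts, H2-DMa, but not for Ciita or H2-Ab1. H2-DMb1 had the X box CTAGTAAC at -97 and the Y box TGATTGG at -63. Its stretch, from 34153051 to 34153170, overlaps the first exon, which GENCODE starts at 34153072, and is not printed for that reason. Counted from 1 at the first base of the box and with H2-DMb1 as reference, the X box of H2-DMb2 differed from that of H2-DMb1 by G4T. From the first base of the X box to that of the Y box there were 34 bases in H2-Aa, H2-DMb1 and H2-DMb2 and 33 in H2-Eb1. The X box letters stood in 41.1% and the Y box letters in 7.82% of all 32851 promoter windows, and the X2 letters in 1.79%. A second match to the X box letters lay at -113 in H2-Eb1, in lower case above, and another at -197 in H2-Aa, outside the printed stretch. An X box 25 to 45 bases upstream of a Y box on the same strand stood in 0.164% of all windows, that is in 54 windows. The first H2-DMa window held neither letters of the X nor of the Y box. The second held the X box letters on the opposite strand at -237 and only the core GATTGG of the Y box at -199. That core stood in 16.1% of all windows. Both H2-DMa windows (34122582 to 34122881 and 34125268 to 34125567) lie inside the gene by GENCODE, which starts it at 34119541. No other start of H2-DMa was searched, so the gene cannot be said to lack the boxes.

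**Figure D1:**
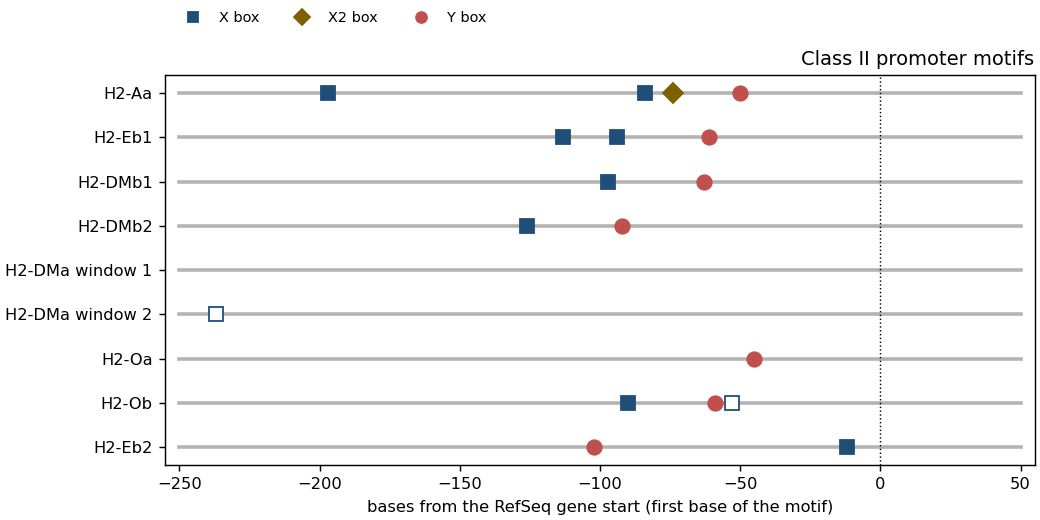
Positions of the X box (squares), X2 box (diamond) and Y box (circles) letters in the promoter windows of the class II genes, in bases from the RefSeq gene start, with open symbols for the opposite strand. H2-Aa, H2-Eb1, H2-DMb1 and H2-DMb2 have an X box 33 or 34 bases before a Y box, and neither H2-DMa window does. Both H2-DMa windows lie inside the gene by GENCODE, and other starts of it were not searched.

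The authors' tables hold no values per library. The unscaled ratio of each gene is a ratio of whole reads summed over the 3 libraries of each group, and those sums were recovered from it as the smallest whole numbers that give it. Over all genes with a recovered sum they amounted to 63250399 reads at 4 h, 68814603 at 24 h and 171083523 at 3 d, against 73826790 in controls, so the 3 d group was read 2.32 times as deeply. Read sums are given below with reads per 1000000 reads of the group (RPM), and their 95% exact Poisson intervals cover counting error only, not the spread between libraries. The authors' DESeq2 and edgeR columns are scaled differently: the median log2 change of all genes tested was -0.04 at 4 h, -0.05 at 24 h and -0.02 at 3 d with DESeq2 in the authors' deposited tables, and -0.97, -0.46 and -0.15 with edgeR. RPM values are on the scale of the edgeR columns. A gene was called at an adjusted p under 0.05 in the DESeq2 columns, adjusted by the authors over all genes of a table, and for the 8 genes both columns are given wherever they differ in a call or a sign. The error given with a DESeq2 log2 change is the standard error that its p-value implies.

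At 4 h the 8 genes moved in different directions. Ciita rose strongly, Cd74 and H2-Ab1 rose a little, and H2-DMb2 fell, in the DESeq2 and the edgeR columns alike. In the authors' deposited table, DESeq2 had 6 of the 8 higher and 1 lower, beside 31.8% of all tested genes higher and 31.0% lower. In its edgeR columns, 3 were higher and 3 lower in the same authors' deposited table, beside 13.5% of all genes higher and 50.1% lower. Thus the 4 h calls of H2-Aa, H2-Eb1, H2-DMa and H2-DMb1 went with the scaling, as the values below show. At 24 h 7 of the 8 rose and 1 fell with DESeq2 (32.4% and 32.2% of all tested genes), and 6 rose and 1 fell with edgeR (16.2% and 41.8%), in the authors' deposited table. At 3 d 7 rose and none fell with DESeq2 (29.5% and 25.8%), also none at an unadjusted p under 0.05, and 7 rose and 1 fell with edgeR (15.5% and 27.7%), in the authors' deposited table. The median DESeq2 log2 change of the 8 genes was 0.85 at 4 h, 2.56 at 24 h and 2.02 at 3 d, against the medians near 0 of all tested genes given above. All 3 comparisons share the same 3 control libraries, so the times are set side by side and their differences were not tested.

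**Figure D2:**
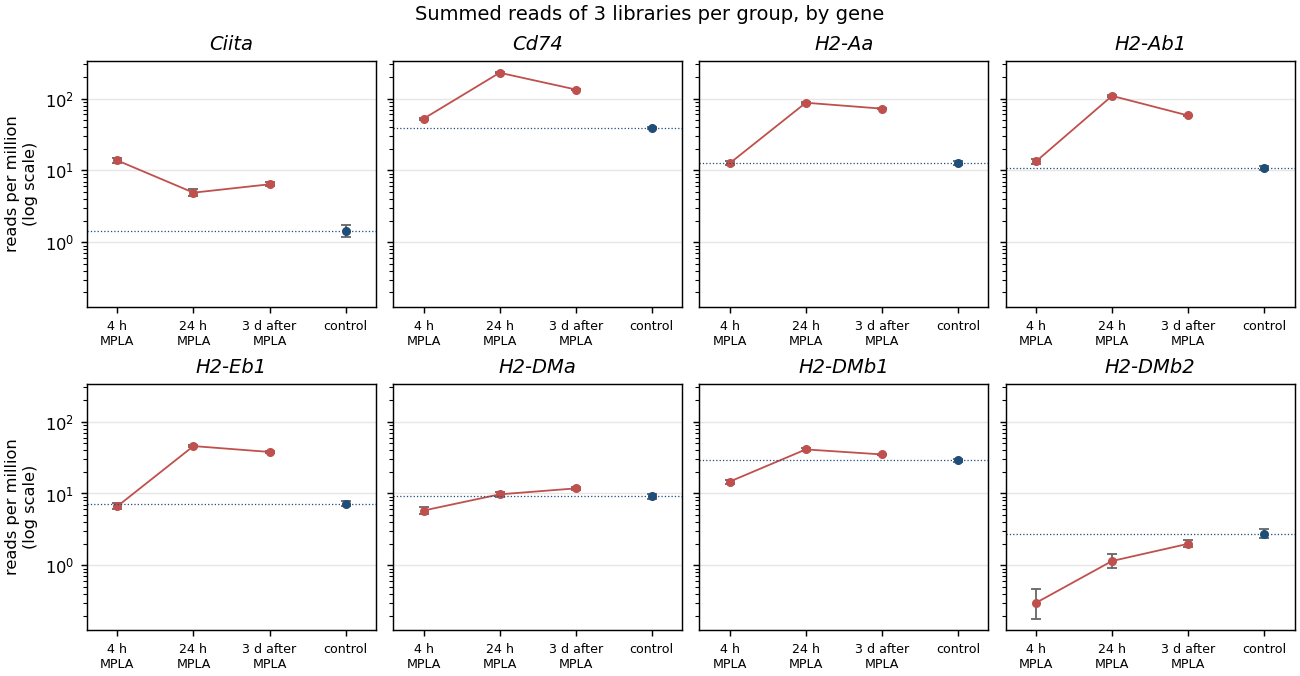
RPM (reads per 1000000 reads of the group, log scale) of each gene in the summed libraries of the 3 MPLA groups and of the controls, with 95% exact Poisson intervals of the sums (counting error only) and a dotted line at the control level. Ciita is highest at 4 h (13.7, against 1.44 in controls), Cd74 and the chain genes at 24 h, and H2-DMb2 is lowest at 4 h (0.3, against 2.76 in controls).

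Ciita, the transactivator of the set, had 869 reads at 4 h, 337 at 24 h and 1096 at 3 d, against 106 in controls. This was 13.7 RPM at 4 h, 4.9 at 24 h and 6.41 at 3 d, against 1.44 RPM in controls. All 3 MPLA groups thus stood above the controls, with the 4 h group highest. In bulk RNA such as this, a change in the number of cells of a type cannot be told apart from a change in RNA per cell. The DESeq2 log2 change in the authors' deposited table was 4.18 ± 0.18 at 4 h (18.1-fold, adjusted p = 9.35e-120), which 574 genes of the 17523 tested equalled or passed, Ciita included. At 24 h it was 2.16 ± 0.23 (4.45-fold, adjusted p = 1.33e-20) and at 3 d 2.16 ± 0.19 (adjusted p = 1.08e-29) in the authors' deposited tables. The edgeR log2 changes were 3.25, 1.76 and 2.13 in the authors' deposited tables and were called as well. Per kilobase of exon Ciita stayed the lowest or second lowest of the 8 in each group, at 1.44 RPM per kb at 4 h, 0.514 at 24 h and 0.672 at 3 d, against 0.151 in controls. Ciita shares 329 exon bases, 3.45% of its exon length, with Dexi on the opposite strand, and the sources used here do not give the strand setting of the counting.

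Cd74, which encodes the invariant chain and lies on chromosome 18, was the most abundant member in every group. It had 3314 reads at 4 h, 15734 at 24 h and 22861 at 3 d, against 2891 in controls, which is 52.4, 229 and 134 RPM, against 39.2 in controls. Its DESeq2 log2 change was 1.36 ± 0.068 at 4 h, 2.96 ± 0.087 at 24 h and 1.89 ± 0.054 at 3 d in the authors' deposited tables, with adjusted p of 6.1e-87, 9.32e-256 and 2.95e-267. The edgeR log2 changes in the authors' deposited tables were 0.43, 2.55 and 1.76, all of them called. The rise at 4 h was therefore between 1.34-fold by RPM and 2.57-fold by DESeq2 in the authors' deposited table.

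H2-Ab1, the beta chain of the class II molecule of this strain, had 842 reads at 4 h, 7499 at 24 h and 9938 at 3 d, against 805 in controls. It stood at 13.3, 109 and 58.1 RPM, against 10.9 RPM in controls, highest at 24 h. Its DESeq2 log2 change of 3.73 at 24 h in the authors' deposited table (13.3-fold, adjusted p listed as 0) was the largest of the 8 genes at that time, and 415 of the 16442 tested genes equalled or passed it. At 4 h the change was 1.23 ± 0.12 (adjusted p = 3.46e-25) and at 3 d 2.54 ± 0.073 (adjusted p = 1.02e-259) in the authors' deposited tables, and the edgeR columns gave 0.29 (adjusted p = 0.00274) and 2.42, with 3.32 at 24 h.

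H2-Aa, the alpha chain that pairs with H2-Ab1, had 796 reads at 4 h, 6017 at 24 h and 12376 at 3 d, against 947 in controls. This is 12.6, 87.4 and 72.3 RPM, against 12.8 in controls, so that the 4 h group and the controls lay within each other's counting intervals. The sign at 4 h depended on the scaling: the log2 change was 0.91 ± 0.11 with DESeq2 (adjusted p = 1.96e-15) and -0.03 with edgeR (adjusted p = 0.775) in the authors' deposited table. At 24 h and 3 d it rose under both, by 3.18 and 2.62 with DESeq2 and by 2.77 and 2.50 with edgeR in log2 units in the authors' deposited tables, with every one of these adjusted p listed as 0.

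H2-Eb1, the beta chain left without its partner in this strain, followed H2-Aa. It had 420 reads at 4 h, 3143 at 24 h and 6473 at 3 d, against 534 in controls, or 6.64, 45.7 and 37.8 RPM, against 7.23 in controls. The 4 h log2 change was 0.80 ± 0.16 with DESeq2 (adjusted p = 6.54e-07) and -0.13 with edgeR (adjusted p = 0.314) in the authors' deposited table, another sign that turned with the scaling. At 24 h the DESeq2 log2 change was 3.07 ± 0.092 (adjusted p = 5.66e-240) and at 3 d 2.48 ± 0.089 (adjusted p = 1.01e-167) in the authors' deposited tables.

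Cd74 and the 3 chain genes together made up 84.9 RPM at 4 h, 471 at 24 h and 302 at 3 d, against 70.1 in controls. All 4 rose at 24 h and 3 d in the authors' deposited tables with either tool, by DESeq2 log2 changes of 2.96 to 3.73 at 24 h and 1.89 to 2.62 at 3 d. Ratios of 2 genes within a group do not depend on the scaling. For each 100 reads of H2-Aa there were 106 of H2-Ab1 at 4 h, 125 at 24 h and 80.3 at 3 d, against 85 in controls. For each 100 reads of H2-Ab1 there were 49.9 of H2-Eb1 at 4 h, 41.9 at 24 h and 65.1 at 3 d, against 66.3 in controls. H2-Ab1 was thus highest relative to the other chain genes at 24 h, and at 3 d the proportions were close to those of the controls.

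**Figure D3:**
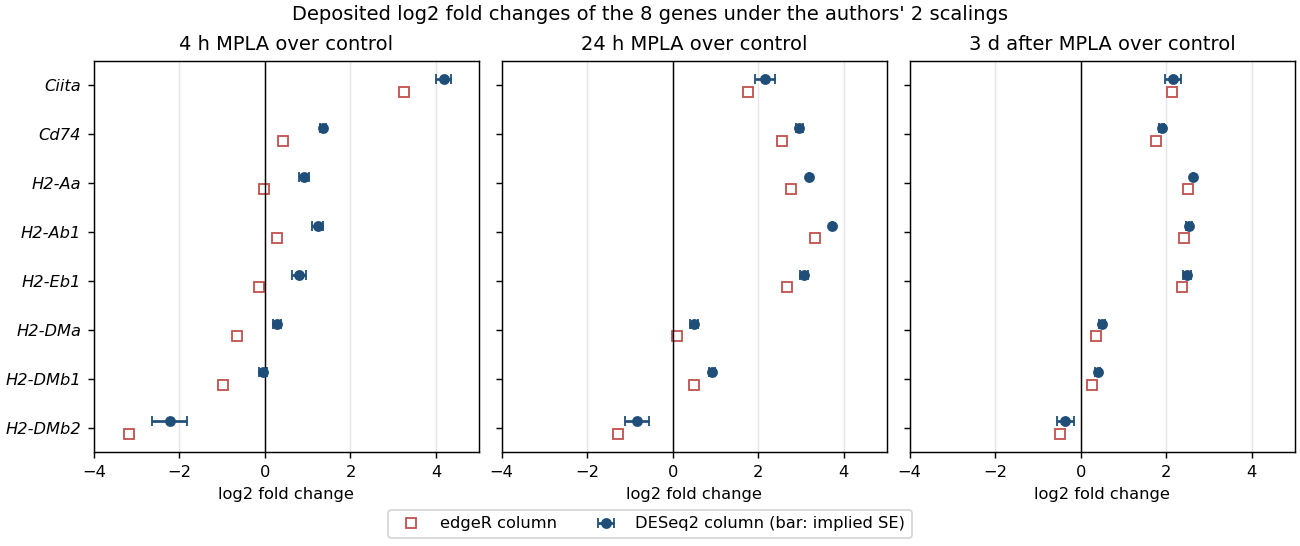
Log2 fold changes of the 8 genes, MPLA over control, from the DESeq2 (filled circles, bars for the implied standard error) and edgeR (open squares) columns of the authors' deposited tables. The edgeR values lie to the left of the DESeq2 values, most at 4 h, where H2-Aa, H2-Eb1 and H2-DMa stand on opposite sides of 0 (0.91 and -0.03 for H2-Aa). No bar is drawn where the p-value is listed as 0.

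The summed level of the 3 genes of the peptide editor DM was 20.7 RPM at 4 h, 51.9 at 24 h and 48.7 at 3 d, against 40.8 in controls. H2-DMb1, a beta chain of DM, had 926 reads at 4 h, 2824 at 24 h and 5979 at 3 d, against 2136 in controls, or 14.6, 41 and 34.9 RPM, against 28.9 in controls. Its 4 h level was the lowest and its 24 h level the highest of the 4 groups. The 4 h log2 change was -0.05 ± 0.089 with DESeq2 (adjusted p = 0.649), which missed the threshold, and -0.99 with edgeR (adjusted p = 1.11e-59) in the authors' deposited table. H2-DMb1 rose by 0.91 ± 0.066 at 24 h (adjusted p = 2.58e-42) and by 0.40 ± 0.063 at 3 d (adjusted p = 8.17e-10) (log2, DESeq2) in the authors' deposited tables, and was called higher by edgeR at both times.

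H2-DMa, the alpha chain of DM, had 366 reads at 4 h, 669 at 24 h and 2014 at 3 d, against 675 in controls. That is 5.79, 9.72 and 11.8 RPM, against 9.14 in controls. At 4 h both tools called it, in opposite directions: 0.28 ± 0.10 with DESeq2 (adjusted p = 0.0133) and -0.66 with edgeR (adjusted p = 1.32e-19) in the authors' deposited table. At 24 h it was 0.50 ± 0.088 with DESeq2 (adjusted p = 3.46e-08) and 0.09 with edgeR (adjusted p = 0.238), and at 3 d it rose under both, by 0.49 ± 0.073 and 0.36, in log2 units in the authors' deposited tables. Of its exon bases, 10.4% overlap Brd2 on the opposite strand, a gene with a DESeq2 log2 change of 2.42 at 4 h in the authors' deposited table, and the part of Brd2 reads in the count of H2-DMa was not tested.

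H2-DMb2, the second gene for a DM beta chain, was lower after MPLA, called by both tools at 4 h and 24 h. It had 19 reads at 4 h, 79 at 24 h and 341 at 3 d, against 204 in controls, that is 0.3, 1.15 and 1.99 RPM, against 2.76 in controls. The order from lowest to highest was 4 h, 24 h, 3 d and controls, and the counting intervals of 4 h (11.4 to 29.7 reads) and 24 h (62.5 to 98.5 reads) do not meet. It fell by 2.23 ± 0.42 at 4 h (4.7-fold, adjusted p = 3.36e-07), and its 24 h change was -0.84 ± 0.28 (adjusted p = 0.00442) (log2, DESeq2) in the authors' deposited tables. At 3 d the log2 change was -0.36 ± 0.20 with DESeq2 (adjusted p = 0.103), which missed the threshold, and -0.48 with edgeR (adjusted p = 0.00181) in the authors' deposited table. For each 100 reads of H2-DMb1 there were 2.05 of H2-DMb2 at 4 h, 2.8 at 24 h and 5.7 at 3 d, against 9.55 in controls.

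The 2 DM beta genes are near copies. Their coding sequences are of the same length, 783 bases, and agree at 95.9% of positions, with an identical run of 221 bases, and 22.7% of the 50-base windows of H2-DMb1 transcripts are also found in H2-DMb2. Reads from such stretches can be dropped or placed on the wrong copy in the authors' counting, so the levels of both are uncertain. The promoters of both hold the X and Y boxes at the same spacing of 34 bases, one of them with the substitution G4T given above. Set against a chain gene, there were 90.9 reads of H2-Ab1 for each 100 of H2-DMb1 at 4 h, 266 at 24 h and 166 at 3 d, against 37.7 in controls.

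Compared per kilobase of exon, the order of levels among genes changed between the groups. In controls H2-DMb1 (17.2 RPM per kb) stood second after Cd74 (23.3) and above H2-Ab1 (4.24), H2-Eb1 (3.72) and H2-Aa (3.37). At 24 h H2-Ab1 (42.4) stood second after Cd74 (136) and above H2-DMb1 (24.4), H2-Eb1 (23.5) and H2-Aa (23). At 3 d the same 4 genes lay between 19 and 22.6 RPM per kb, below Cd74 at 79.8. Whether neighbours in these orders differ beyond the spread between libraries cannot be said from group sums.

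Among other class II genes, H2-Oa and H2-Ob encode DO, the inhibitor of DM. H2-Oa had 7 reads at 4 h, 47 at 24 h and 89 at 3 d, against 11 in controls. It rose by 2.55 ± 0.36 at 24 h (adjusted p = 3.41e-12) and by 1.75 ± 0.30 at 3 d (adjusted p = 3.35e-08) (log2, DESeq2) in the authors' deposited tables. H2-Ob had 21, 35 and 164 reads, against 55 in controls, and its DESeq2 changes of -0.29, -0.15 and 0.43 in the authors' deposited tables did not pass the test at any time. By edgeR, H2-Ob was called lower at 4 h (-1.18, adjusted p = 0.00479) in the authors' deposited table, and not called at 24 h or 3 d. H2-Eb2 was listed at 0 in controls and H2-Ea-ps had no row. In its promoter window H2-Ob had an X box 31 bases before a Y box, whereas H2-Oa held the Y box letters at -45 and no X box letters.

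Of 7 genes for factors that bind the X, X2 and Y boxes, 4 rose and 2 fell at 4 h, 3 rose and 1 fell at 24 h, and 1 rose and 3 fell at 3 d with DESeq2 in the authors' deposited tables, with medians of 0.42, 0.01 and -0.05. The edgeR columns of the authors' deposited tables had 1 higher and 6 lower at 4 h, 5 lower at 24 h, and 1 higher and 4 lower at 3 d. Beside these counts and those of every list below stand the shares of all genes in the authors' deposited tables. With DESeq2, 31.8% of tested genes were higher at 4 h, 32.4% at 24 h and 29.5% at 3 d, and 31.0%, 32.2% and 25.8% were lower. The edgeR columns had 13.5%, 16.2% and 15.5% of all genes higher, and 50.1%, 41.8% and 27.7% lower. Rfx5, the DNA-binding subunit of RFX, had DESeq2 log2 changes of 0.67, 0.54 and 0.38 in the authors' deposited tables, with -0.27 at 4 h by edgeR. Its partner subunits fell at 4 h under both scalings, Rfxank with -1.64 ± 0.18 (adjusted p = 4.84e-20) and Rfxap with -1.07 ± 0.17 (adjusted p = 5.31e-10) (log2, DESeq2) in the authors' deposited table. Rfxank had 150 reads at 4 h, 739 at 24 h and 1797 at 3 d, against 1044 in controls. Of the NF-Y subunits, Nfyb rose at 4 h under both scalings of the authors' deposited table (1.52 with DESeq2, 0.59 with edgeR). Nfya (0.42) and Creb1 (0.74), a factor of the X2 box, rose at 4 h with DESeq2 only and were called lower by edgeR. Nfyc (-0.17) did not pass with DESeq2 at 4 h and was called lower by edgeR (-1.11) in the authors' deposited table.

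Of 8 genes that act on Ciita transcription, 7 rose and 1 fell at 4 h with DESeq2 in the authors' deposited table (6 and 2 with edgeR), with a median of 1.88. At 24 h 3 rose and 4 fell, and at 3 d 3 rose and 5 fell, with medians of -0.09 and -0.18, and edgeR had 3 higher and 5 lower at both times, in the authors' deposited tables. Irf1, an activator of the interferon-responsive Ciita promoter, had 72886 reads at 4 h, 16291 at 24 h and 19713 at 3 d, against 7024 in controls, and DESeq2 log2 changes of 4.53, 1.72 and 0.40 in the authors' deposited tables. Socs1, an inhibitor of JAK kinases, had changes of 8.21, 6.20 and 2.15 with DESeq2 in the authors' deposited tables. Irf8 (2.72), Spi1 (1.94), Irf2 (1.81) and Prdm1 (1.46), the last of these a repressor of Ciita, rose at 4 h, and Irf8 (-0.91) and Prdm1 (-0.76) fell at 24 h, under both scalings of the authors' deposited tables. Irf4 fell at each time, with changes of -2.31, -3.46 and -1.93 (log2, DESeq2) in the authors' deposited tables, and had 12, 8 and 71 reads, against 138 in controls. Usf1 was at 0.36, -0.20 and -0.55 with DESeq2 in the authors' deposited tables, its 4 h sign being opposite with edgeR (-0.57).

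Of the 4 genes of the interferon gamma receptor and its kinases, 3 rose and 1 fell with DESeq2 at each time in the authors' deposited tables, with medians of 1.16, 0.76 and 0.31. Jak2 rose by 5.30, 3.58 and 1.64 and Ifngr2, the second receptor chain, by 1.04, 1.13 and 0.47, whereas Ifngr1, the ligand-binding chain, fell, with -1.44, -1.36 and -0.19 (log2, DESeq2) in the authors' deposited tables. Jak1 was at 1.28, 0.39 and 0.15 with DESeq2 in the authors' deposited tables and was called higher by edgeR at 4 h alone.

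**Figure D4:**
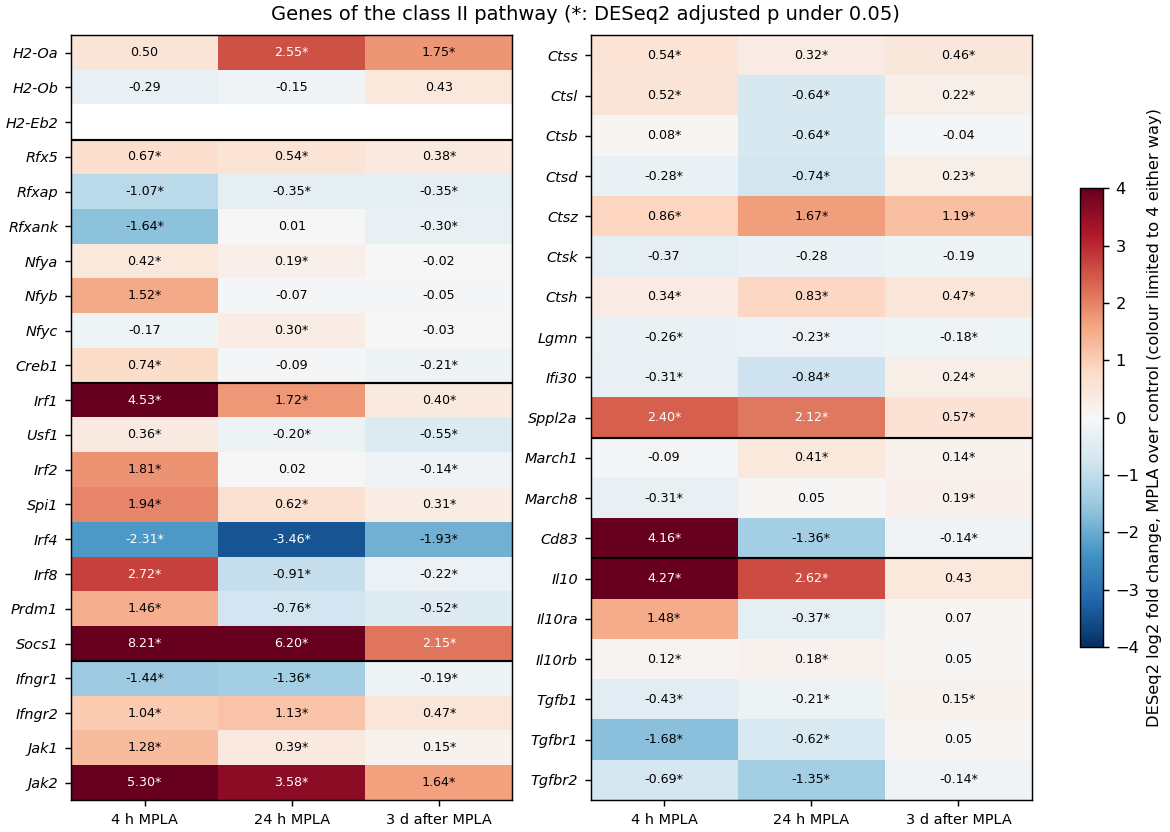
DESeq2 log2 fold changes, MPLA over control, of class II pathway genes from the authors' deposited tables, with an asterisk at an adjusted p under 0.05 and lines between gene lists. Jak2, Socs1 and Sppl2a are higher at all 3 times, Irf4 and Ifngr1 are lower, and Cd83 is higher at 4 h (4.16) and lower at 24 h (-1.36).

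Among 10 genes of endosomal proteolysis, which prepares peptides and degrades the invariant chain, 6 rose and 3 fell at 4 h, 4 rose and 5 fell at 24 h, and 7 rose and 1 fell at 3 d with DESeq2 in the authors' deposited tables. The medians were 0.21, -0.26 and 0.23. By the edgeR columns of the authors' deposited tables, 1 was higher and 9 lower at 4 h, 3 and 7 at 24 h, and 5 and 3 at 3 d. Of all genes, the same columns had 50.1% lower at 4 h, 41.8% at 24 h and 27.7% at 3 d in the authors' deposited tables. Sppl2a encodes a protease that cleaves the membrane-bound fragment of the invariant chain, not the fragment in the groove. It rose by 2.40, 2.12 and 0.57 (log2, DESeq2) in the authors' deposited tables, and with edgeR too. Ctsz rose at 24 h (1.67) and 3 d (1.19), and Ctsh at the same times (0.83 and 0.47), in the authors' deposited tables with both tools. Ctss, a main protease of the invariant chain in antigen-presenting cells, was at 0.54, 0.32 and 0.46 with DESeq2 in the authors' deposited tables, and at -0.39, -0.10 and 0.33 with edgeR. Ctsl (-0.64), Ctsb (-0.64), Ctsd (-0.74), Lgmn (-0.23) and Ifi30 (-0.84), the reductase of this compartment, fell at 24 h with both tools in the authors' deposited table. Ctsk did not pass with DESeq2 at any time (-0.37, -0.28 and -0.19 in the authors' deposited tables). With edgeR it was called lower at all 3 times (-1.30, -0.70 and -0.31 in the authors' deposited tables).

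Surface class II is removed by the ubiquitin ligases encoded by March1 and March8, and CD83 opposes this. March1 was at -0.09, 0.41 and 0.14, and March8 at -0.31, 0.05 and 0.19, with DESeq2 in the authors' deposited tables, and both were lower at 4 h with edgeR (-1.03 and -1.25). Cd83 had 75550 reads at 4 h, 2555 at 24 h and 18054 at 3 d, against 9377 in controls, with DESeq2 log2 changes of 4.16, -1.36 and -0.14 in the authors' deposited tables, all called. Of these 3 genes 1 rose and 1 fell at 4 h and at 24 h, and 2 rose and 1 fell at 3 d, with medians of -0.09, 0.05 and 0.14 (DESeq2, from the authors' deposited tables). With edgeR in the authors' deposited tables, 1 was higher and 2 lower at 4 h, 0 and 2 at 24 h, and 0 and 1 at 3 d. Of 6 genes of cytokines that lower class II and their receptors, 3 rose and 3 fell at 4 h, 2 rose and 4 fell at 24 h, and 1 rose and 1 fell at 3 d with DESeq2 in the authors' deposited tables, with medians of -0.15, -0.29 and 0.06. According to edgeR in the authors' deposited tables, 2 were higher and 4 lower at 4 h, 1 and 5 at 24 h, and 1 was lower at 3 d. Il10 rose at 4 h (4.27) and 24 h (2.62) and was at 0.43 (adjusted p = 0.188) at 3 d with DESeq2 in the authors' deposited tables. Il10ra was at 1.48, -0.37 and 0.07, and Il10rb at 0.12, 0.18 and 0.05, with DESeq2 in the authors' deposited tables, Il10rb being called lower by edgeR at 4 h (-0.82) and 24 h (-0.23). Tgfbr1 (-1.68 and -0.62), Tgfbr2 (-0.69 and -1.35) and Tgfb1 (-0.43 and -0.21) fell at 4 h and 24 h with both tools in the authors' deposited tables.

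By Euclidean distance over the 3 DESeq2 log2 changes, and among 13200 genes with finite values at all times and a call in at least 1, the profile nearest to the mean of Cd74, H2-Aa, H2-Ab1 and H2-Eb1 (1.07, 3.24 and 2.38) was that of Bst1. It had 0.96, 3.17 and 2.22 in the authors' deposited tables, at a distance of 0.21, and 407, 2942 and 4648 reads at the 3 times, against 465 in controls. Next came Cplx2 at a distance of 0.24, with 1.14, 3.39 and 2.22 in the authors' deposited tables, on 2 reads in controls. Ttc21a (0.31) had 1.03, 3.54 and 2.44, Irak3 (0.41), an inhibitor of Toll-like receptor signalling, had 1.05, 3.01 and 2.05, and Spib (0.42, on 6 reads in controls) had 0.81, 3.46 and 2.16, in the authors' deposited tables. Nearest to Ciita (4.18, 2.16 and 2.16) were Rlbp1, which was listed at 0 in controls, Ehd3 (0.33), Cacng8 (0.40, on 2 reads in controls), Gpd2 (0.47) and Gm13477 (0.57, on 7 reads in controls). Ehd3 had 3.86, 2.17 and 2.27, Cacng8 4.52, 2.23 and 1.96, Gpd2 4.35, 1.81 and 1.90, and Gm13477 3.81, 2.32 and 1.75 as DESeq2 log2 changes in the authors' deposited tables. Gpd2, a mitochondrial glycerol-3-phosphate dehydrogenase, had 23221 reads at 4 h, 6234 at 24 h and 20074 at 3 d, against 2529 in controls. The edgeR columns of the authors' deposited tables set some of these genes farther from their target at 24 h and 3 d. At 24 h, against a median of 2.71 for Cd74 and the chain genes, Cplx2 was at 3.51, Spib at 3.28 and Ttc21a at 3.20. Bst1 was at 2.76 and Irak3 at 2.59. Beside Ciita at 1.76, Rlbp1 was at 3.90, Cacng8 at 2.34, Gm13477 at 2.09, Ehd3 at 1.85 and Gpd2 at 1.40. At 3 d, against a median of 2.40 for Cd74 and the chain genes, Cplx2 was at 4.08 and Spib at 3.01. Ttc21a (on 21 reads in controls) was at 2.66, Bst1 at 2.11 and Irak3 at 1.92. Against 2.13 for Ciita, Rlbp1 was at 6.70 and Cacng8 at 3.77. Ehd3 (on 14 reads in controls) was at 2.64, Gm13477 at 2.44 and Gpd2 at 1.77. The distances describe 3 group contrasts only and carry no test.

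Markers of the labelled cell type were present in all groups. All 8 macrophage markers (Adgre1, Csf1r, Cd68, Mertk, Fcgr1, Itgam, Lyz2 and Cd14) had reads, together 24132 RPM at 4 h, 20340 at 24 h and 21280 at 3 d, against 41432 in controls. Most of this sum in controls was Lyz2 alone, with 17198, 8564 and 10803 RPM, against 32374 in controls. The fall of the sum therefore does not describe the markers in general. Lyz2 had DESeq2 log2 changes of 0.02, -1.50 and -1.43 in the authors' deposited tables. Of these 8, 6 rose and 1 fell at 4 h, 4 rose and 4 fell at 24 h, and 5 rose and 3 fell at 3 d with DESeq2 in the authors' deposited tables, with medians of 0.52, -0.18 and 0.26, while edgeR had 3 higher and 5 lower at 4 h. Adgre1, which encodes F4/80, rose by 1.22, 2.15 and 1.17 and Fcgr1 by 3.07, 3.70 and 0.98, and Csf1r fell, with -1.01, -1.52 and -0.54 (log2, DESeq2) in the authors' deposited tables. Cells of other types can also carry class II. The 4 B cell markers with a read sum (Cd79a, Cd79b, Ms4a1 and Ighm) made up 8.92 RPM at 4 h, 0.945 at 24 h and 4.65 at 3 d, against 53.6 in controls, while Blk had no row and Pax5 and Ebf1 were listed at 0 in controls wherever they had one. Of the tested B cell markers 1 of 5 was called lower at 4 h and 2 of 3 at 24 h, and at 3 d 1 was higher and 1 lower, with DESeq2 in the authors' deposited tables (medians of -0.20, -1.54 and -2.98). Most of the B cell marker reads in controls were those of Ighm, with 491, 3 and 80 reads, against 3714 in controls. Cd79b had 70, 56 and 700 reads, against 233 in controls, that is 1.11, 0.814 and 4.09 RPM, against 3.16 in controls, and was called lower at 24 h (-1.54) and higher at 3 d (0.47) with DESeq2 in the authors' deposited tables. Cd79a had 1, 1 and 14 reads, against 3 in controls, and Ms4a1 had 2, 5 and 2, against 5 in controls. The B cell markers thus did not all follow Ighm at 3 d, and their part in the values of H2-DMb2 was not tested.

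The 7 dendritic cell markers with a read sum made up 10.6, 5.33 and 11.2 RPM, against 25.8 in controls. Most of these reads in controls were those of Cd24a, with 375, 170 and 1718 reads, against 1767 in controls. That is 5.93, 2.47 and 10 RPM, against 23.9 in controls, so the fall of the sum does not describe the other markers. Ccr7 and Cd209a have no recovered sum and are left out of it. With DESeq2 4 of 8 tested rose and 1 fell at 4 h, 2 of 6 rose and 2 fell at 24 h, and 2 of 5 fell at 3 d in the authors' deposited tables (medians of 0.95, -0.14 and -0.11). Zbtb46 had 50, 11 and 92 reads, against 48 in controls, and Clec9a 65, 30 and 22, against 51. Flt3 and Siglech had at most 5 reads in any group, Dpp4 had 7, 6 and 23, against 9 in controls, and Cd209a was listed at 0 in all MPLA groups. Xcr1 (169, 150 and 57 reads, against 24 in controls) rose at 4 h and 24 h, and Ccr7, listed at 0 in controls, was called higher at both times in the authors' deposited tables. At 3 d Ccr7 was not tested with DESeq2 and was called higher by edgeR (5.08, adjusted p = 0.00267) in the authors' deposited table. Of the T and NK cell markers, Cd3g, Cd8a and Ncr1 had no row, Cd3e had one only at 3 d, Klrb1c had at most 11 reads, and Cd4, with 79, 90 and 1439 reads, against 332 in controls, was called lower at 4 h and 24 h and higher at 3 d in the authors' deposited tables. Klrb1c was called lower at 24 h as well in the authors' deposited table. The part of these cells in the class II levels was not tested.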

How the data were processed

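RNA of 12 libraries of cultured mouse macrophages was sequenced from stranded polyadenylated libraries, per the labels' protocols. Build mm10 and, without versions, the tools TopHat2, HTSeq, bcl2fastq, DESeq, DESeq2 and edgeR are named in the submitters' processing notes. Counting settings, use of strand and annotation release are not given in the sources used here. Each of 3 tables compares 1 MPLA group with the same controls and was normalized on its own. Per the file headers, the authors gave log2 fold changes, p-values and adjusted p-values of DESeq2 and edgeR, an unscaled log2 ratio, and scores of baySeq. A positive log2 value means higher in controls in the deposited tables, and every sign was turned here, so that positive means higher after MPLA. The tables hold no value per library, so no model was fitted here, and the authors' adjusted p-values were used, an NA being kept as not tested. The DESeq2 columns were the main ones and the authors' edgeR columns, baySeq error rate and other thresholds the alternatives.

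Whole read sums were recovered from the deposited unscaled log2 ratio as the simplest fraction within 1e-13, by Python 3.11.15 with numpy 2.4.6, pandas 2.3.3 and scipy 1.17.1. For 16349 genes with reads in all groups, the control sum was obtained independently from the 3 tables: it was the same number in 37.7%, and in 99.9% the least common multiple of the 3 numbers was at most 6 times the largest, as reduced fractions of one sum would give. That shared number also fixes which side of the deposited ratio is the controls. The recovered totals stood to those of the controls as 0.857, 0.932 and 2.32, and the offsets between the authors' edgeR column and the unscaled ratio imply 0.859, 0.934 and 2.32. True sums may be a common multiple of those given. Genes at 0 in controls have no recoverable sum. The recovery was tested on simulated sums. Standard errors were taken as the DESeq2 log2 change over the normal deviate of its p-value in the authors' table, a Wald test being assumed, and none is given where the p-value is listed as 0. Exon lengths and overlaps are from GENCODE vM21 (GRCm38), which may differ from the authors' annotation.

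The members and the gene lists were chosen with earlier results of these data known, so no list is independent evidence and none was tested as a set. All members are named at all times, all genes of the lists are named except some that are not reported here and enter no count, and the 5 nearest profiles are named for each of 2 targets.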

Additional observations from a re-analysis of the deposited data

How the results depend on the processing

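Calls at 24 h and 3 d changed less than those at 4 h, which changed with the scaling. With the authors' edgeR columns the members called at 4 h were 3 higher and 3 lower, in place of 6 and 1 with DESeq2. At 24 h 6 were higher in place of 7, and at 3 d 1 was lower in place of none. The 4 h log2 change turned to -0.03 in H2-Aa, -0.13 in H2-Eb1 and -0.66 in H2-DMa in the authors' deposited table under edgeR, and to -0.03, -0.12 and -0.66 by RPM, an alternative chosen after seeing the data. The cause was not tested. With the median of all genes taken from the edgeR columns, no member with a given error differed from DESeq2 by more than that error. That step removes most of the offset between DESeq2 and edgeR, so the closeness was largely fixed in advance and tests no cause. The authors' baySeq error rate called 5 members higher and 2 lower at 4 h in the authors' deposited table. Calls by all 3 tools left 3 higher at 4 h and 6 at 24 h in the authors' deposited tables. A 2-fold minimum left 3 higher at 4 h, 5 at 24 h and 5 at 3 d, and 0 lower at 24 h, in the authors' deposited tables. Adjustment of all DESeq2 p-values without the filter changed no count. Of 168 values of single members under an alternative, 126 kept their side or value, 14 lost and 3 gained a call and 6 turned sign. The other 19, all by RPM, moved, by more than their error where an error is given. The edgeR columns were judged by call and sign only. Cd74 at 4 h thus counts as kept with edgeR (0.43) and as moved by RPM (0.42), against 1.36 with DESeq2. Alternatives that change only the threshold or the tool of the call repeat the DESeq2 value, so 126 is not a measure of stable size. No paired analysis was possible because the deposited tables hold no values per library, and for the same reason leaving out each library was not run. Depth limits genes with few reads, such as H2-DMb2 (19 reads at 4 h) and H2-Oa (7 reads at 4 h).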

Other observations

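The class II region of chromosome 17 (GRCm38) between H2-Oa and H2-Eb2 also holds genes of class I presentation, which were looked at after the class II values were seen. Between H2-DMb1 and H2-Ob lie Psmb9 and Psmb8, subunits of the immunoproteasome, and Tap1 and Tap2, the transporter that carries peptides to class I molecules. In the authors' deposited tables all 4 rose at each time, under either scaling. Tap1 had DESeq2 log2 changes of 4.25, 3.05 and 1.75, Tap2 of 3.17, 2.53 and 1.10, Psmb9 of 2.72, 2.04 and 0.91, and Psmb8 of 2.68, 2.90 and 1.24 at 4 h, 24 h and 3 d in the authors' deposited tables. Tap1, Tap2 and Psmb9 thus had their largest change at 4 h, as Ciita did, whereas H2-Ab1, H2-Aa and H2-Eb1 in the same region had theirs at 24 h. Whether the times differ was not tested. The 4 h change of Brd2, which lies between H2-Oa and H2-DMb2 and overlaps H2-DMa, was 2.42 with DESeq2 in the authors' deposited table.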
